A study of Homo sapiens with 10 samples.

Results

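The 10 genes described here are the mitochondrially encoded respiratory subunits ND1, ND2, ND4, ND5, ND6, CYTB, COX1, COX2, COX3 and ATP6. They were chosen by symbol, and all 10 were found among the 46427 genes of the deposited table, which holds 37 genes of the mitochondrial genome. Poly(A) RNA of 10 cultures of 2 established human lung cancer cell lines, H460 and A549, was sequenced. H460 gave 3 libraries of untreated parental cells in 2D culture. It also gave 1 library of CR cells (surviving 4 µM cisplatin), 2 of PR cells (surviving 5 nM paclitaxel), 1 of DR cells (surviving 0.5 µM doxorubicin) and 1 of tumor sphere (TS) cells. A549 gave 1 library in 2D culture and 1 of TS cells. The drugs were given for 3 days and followed by 3 days in fresh medium, so the CR, PR and DR cells are survivors of a short treatment and not selected clones. The 2D cells grew in serum, whereas the TS cells grew unattached in medium with B27 and growth factors, so that attachment and medium cannot be told apart. The labels do not say that replicates came from separate cultures, and p-values measure only the spread between these libraries.

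The respiratory chain in the inner mitochondrial membrane passes electrons from NADH and succinate to oxygen and pumps protons, and ATP synthase uses the proton gradient to make ATP. Most subunits are encoded in the nucleus, but the hydrophobic core subunits are encoded by the circular mitochondrial DNA (mtDNA), of which a cell holds many copies. Each mtDNA strand is transcribed into a long polycistronic RNA, from which the tRNAs between the coding sequences are cut out, and the mRNAs that this frees receive short poly(A) tails inside the mitochondrion. Read counts on these genes do not separate the number of mtDNA copies, their transcription and the stability of the mRNAs, and in cultures as a whole fewer cells of a type and less RNA per cell cannot be told apart.

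All 10 members lie on the mitochondrial chromosome of GRCh38, without introns, 9 on the plus strand and 1 on the minus strand. The members ND1 (MT:3307-4262), ND2 (MT:4470-5511), ND4 (MT:10760-12137), ND5 (MT:12337-14148) and ND6 (MT:14149-14673, minus strand) encode membrane subunits of complex I, NADH dehydrogenase. CYTB (MT:14747-15887) encodes cytochrome b, the catalytic core of complex III. COX1 (MT:5904-7445), COX2 (MT:7586-8269) and COX3 (MT:9207-9990) encode the core of complex IV, cytochrome c oxidase. ATP6 (MT:8527-9207) encodes the subunit a through which protons pass ATP synthase.

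The 3′ ends of the coding sequences are shown because poly(A) selection, the step by which these libraries were made, acts on what follows them. Of the 10 members, 5 (ND1, ND2, ND4, CYTB and COX3) end in an incomplete stop codon, which the poly(A) tail completes to TAA in the cell. The last 15 bases of each gene, 5′ to 3′ on its own strand from GENCODE 29 on GRCh38, are given below with the complete or incomplete stop codon in capitals. ND6 and COX1 end in AGG and AGA, which act as stops in human mitochondria.
ND1: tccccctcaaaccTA
ND2: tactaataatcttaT
ND4: ccgggttttcctctT
CYTB: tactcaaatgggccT
COX3: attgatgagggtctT
ND5: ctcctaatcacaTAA
COX2: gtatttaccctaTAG
ATP6: cacgacaacacaTAA
ND6: gctcgggggaatAGG
COX1: tacataaaatctAGA

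Some members share bases with a neighbour, so that reads on them cannot be assigned to 1 gene. ATP6 begins inside ATP8, and both are translated from the same mRNA. The 46 bases they share (MT:8527-8572, with the start codon of ATP6 and the stop codon of ATP8 in capitals) read as follows.
ATP8 and ATP6: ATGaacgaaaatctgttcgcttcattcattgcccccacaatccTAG
ND4 begins in the last 7 bases of ND4L (MT:10760-10766), again on a shared mRNA. ATP6 ends at base 9207, where COX3 begins, so the last base of its TAA is also the first base of COX3. ND5 ends at base 14148 and ND6 begins at base 14149 on the other strand. Whether the kit or the counting kept the strand is not given, so reads of RNA antisense to ND6 cannot be told from ND6 mRNA, which itself usually carries no poly(A) tail.

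The libraries held 59499787 to 89541774 counts on genes, of which 2805965 to 6077824 were on the members. Nuclear copies of mitochondrial sequence can share reads with the members, and how such reads were counted is not given. The 10 rows of MTRNR2L genes, nuclear copies of the large mitochondrial rRNA, held between 48 and 215 counts in all per library, and 3 of them were at 0. The H460 libraries expressed the epithelial keratins KRT8 (283 to 751 FPKM) and KRT18 (190 to 349 FPKM), but EPCAM stayed at or below 0.114 FPKM and CDH1 at or below 0.0266 FPKM. In A549, CDH1 was at 9.29 and 11.9 FPKM. Of the markers of other cell types, the endothelial list summed to at most 0.182 FPKM in any library and PTPRC, which marks leukocytes, reached at most 0.157 FPKM. CD68, a lysosomal protein of macrophages and other cells, was at 15.0 to 16.9 FPKM in parental and 30.7 to 57.9 FPKM in drug-resistant libraries, and the 5 fibroblast markers summed to 0.523 to 28.3 FPKM, the highest sum being in H460 TS with LUM at 26.6. Between drug-resistant and parental libraries 3 of 3 leukocyte (ITGAM, CD68 and PTPRC) and 2 of 3 endothelial markers tested (VWF and PECAM1) were called higher. So were 2 of 4 fibroblast markers (COL1A2 and DCN), beside 18.2% of all genes tested, and 0 of 4 epithelial markers were called. However, ITGAM, PTPRC, PECAM1 and COL1A2 were at 0 FPKM in all 3 parental libraries. These genes passed the count filter only through the drug-resistant libraries, so they could only be called higher. VWF and DCN were at or below 0.0284 FPKM in the parental libraries. Apart from CD68 the markers called stayed at or below 0.399 FPKM in the drug-resistant and parental libraries. The part of CD68 and LUM in the results below was not tested.

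The members were among the most abundant RNAs of every culture. Their summed counts made up 4.82%, 4.27% and 8.27% of all counts on genes in the 3 parental libraries. In the drug-resistant libraries the share was 5.85% (CR), 6.54% and 7.98% (PR) and 6.45% (DR). The H460 TS library had 6.43%, and the A549 libraries had 7.14% (2D) and 8.49% (TS). Wilson 95% intervals of these shares, which cover counting error only, were narrow, for example 4.268 to 4.278% for parental replicate 2. Parental replicate 3 thus held the second largest share of all 10 libraries, after A549 TS, and parental replicate 2 the smallest, and the drug-resistant libraries lay between them. Parental libraries averaged 5.79% ± 2.17 (SD, n = 3), and drug-resistant libraries averaged 6.70% ± 0.904 (SD, n = 4), a ratio of 1.16, which was 1.48 without parental replicate 3 and 1.02 without parental replicate 2. Expressed as a share of TPM, which corrects for gene length, the members held 8.11 to 16.4%.

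**Figure D1:**
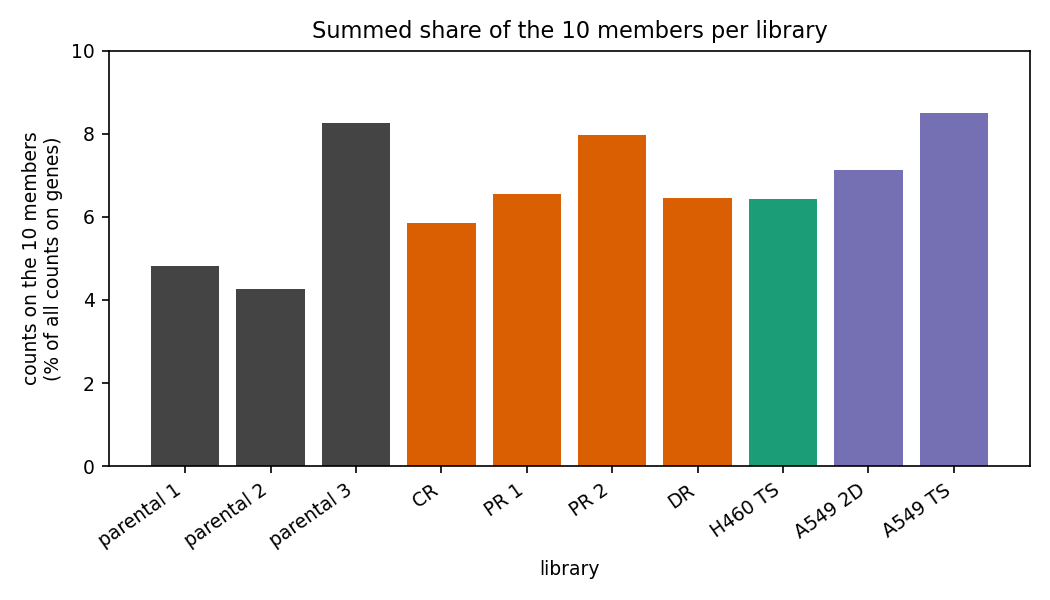
Counts on the 10 members as a percentage of all counts on genes, 1 bar per library (grey, parental H460; orange, drug-resistant H460; green, H460 TS; purple, A549). The parental bars span 4.27 to 8.27% and enclose the 4 drug-resistant bars, at 5.85 to 7.98%.

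Compared per length, in FPKM averaged over the 10 libraries, the complex IV subunits stood at the top. The means of COX1, COX2 and COX3 were 11989, 10220 and 10107 FPKM. COX1 was the highest member in 8 of 10 libraries. COX2 exceeded COX3 in only 5 of 10 libraries, so these neighbours in the order did not differ beyond their spread. ATP6 followed with 7123 FPKM, below COX3 in 10 of 10 libraries, and ND4 with 5602 FPKM, below ATP6 in 10 of 10. ND1 (3248 FPKM) exceeded ND2 (2930 FPKM) in 6 of 10 libraries, and ND2 exceeded CYTB (2351 FPKM) in 8 of 10. ND5 had 1426 FPKM. ND6, encoded alone on the other strand, was lowest in 10 of 10 libraries with 364 FPKM. Members of the same complex were therefore not at equal levels, as the 5 subunits of complex I ranged from 364 to 5602 FPKM.

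**Figure D2:**
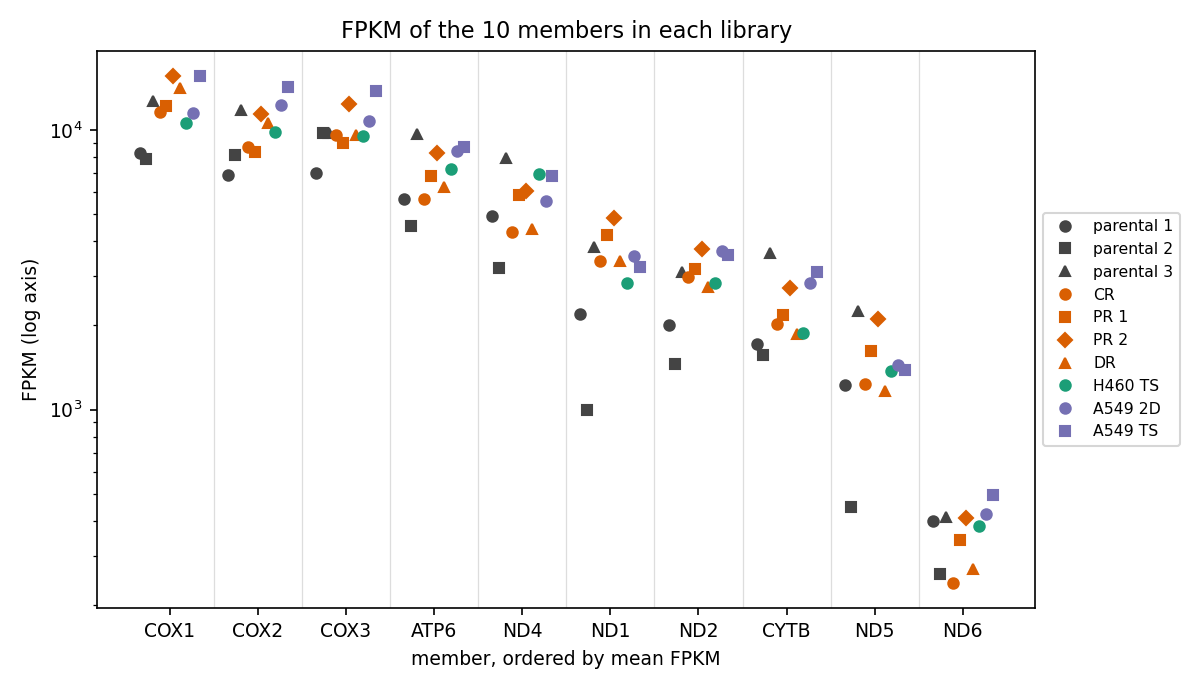
FPKM of each member (log axis) in each library, members ordered by their mean over 10 libraries, with 1 point per library. COX1 lies highest and ND6 lowest, and among the grey parental points the triangle of replicate 3 is highest for each of the 10 members.

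The 3 parental libraries, which bear the same label, spanned a wider range than the 4 drug-resistant libraries for 9 of 10 members, ND6 being the exception (1.61-fold against 1.71-fold). Parental replicate 3 was the highest parental library for 10 of 10 members. Parental replicate 2 was the lowest for 8 members, and parental replicate 1 was the lowest for the other two, COX2 and COX3. ND5, which encodes an antiporter-like subunit at the far end of the membrane arm of complex I, was at 1224, 450 and 2250 FPKM in parental replicates 1 to 3, a 5.00-fold range. ND1, whose product lies where the membrane arm meets the quinone site, was at 2197, 993 and 3805 FPKM, a 3.83-fold range. COX3 had the narrowest parental range, with 7003, 9735 and 9762 FPKM. Over the 4 drug-resistant libraries the ranges were 1.34-fold for COX1 to 1.81-fold for ND5.

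Other RNAs set parental replicate 3 apart as well. RN7SL1 and RN7SL2, the RNA of the signal recognition particle, which has no poly(A) tail, were at 23.5 and 33.3 FPKM in parental replicate 1, at 29.2 and 43.3 in replicate 2, and at 210 and 280 in replicate 3. In the other 7 libraries they lay between 8.43 and 82.4 FPKM. The fitted difference of RN7SL1 between drug-resistant and parental libraries turned with that library, from -1.06 (log2, SE 0.65, edgeR with Benjamini-Hochberg adjustment, adjusted p = 0.228) over all libraries to 0.76 (adjusted p = 0.0487) without parental replicate 3. The part of poly(A) selection in the levels of the members was not tested. Values without parental replicate 3 are therefore given where they change a call or a sign in the fit of all drug-resistant cells.

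To ask whether drug-resistant H460 cells differ from parental cells, 4 libraries (1 CR, 2 PR, 1 DR) were compared with 3. The drugs were taken as 1 group, so the spread and the standard errors include differences between drugs. No member passed the test (0 of 10 at an adjusted p of 0.05, and 0 at an unadjusted p of 0.05), whereas 32.5% of the 19902 genes tested were called, 18.2% higher and 14.3% lower. With DESeq2 0 members were called as well. The test was edgeR's quasi-likelihood test on the counts with Benjamini-Hochberg adjustment over all genes. The fold changes are therefore given as values and not as changes. The median of all genes was itself at a log2 fold change of 0.11, and at 0.29 with upper-quartile scaling, under which 4458 genes were called higher and 2007 lower in place of 3624 and 2841.

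Within complex I, ND1 had the largest difference. Against 2197, 993 and 3805 FPKM in parental cells, ND1 was at 3408 in CR, 4203 and 4858 in PR, and 3386 FPKM in DR cells. The means were 2332 ± 1411 (SD, n = 3) and 3964 ± 707 FPKM (SD, n = 4), and the log2 fold change was 0.59 (SE 0.39, edgeR adjusted p = 0.263). Parental replicate 3 lay above the CR and DR libraries, so the groups overlapped.

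ND2, another antiporter-like subunit, was at 2005, 1456 and 3115 FPKM in parental cells. It was at 2976 in CR, 3176 and 3740 in PR, and 2737 FPKM in DR cells, with a log2 fold change of 0.37 (SE 0.28, edgeR adjusted p = 0.325). Again only parental replicate 3 reached into the range of the drug-resistant libraries. ND4, also antiporter-like, was at 4932, 3199 and 7948 FPKM in parental and at 4314, 5833, 6036 and 4431 FPKM in CR, PR and DR libraries. Its log2 fold change was -0.22 (SE 0.31), the sign of which turned without parental replicate 3 (0.21). ND5 was at 1236, 1620, 2113 and 1167 FPKM in CR, PR and DR libraries, with a log2 fold change of 0.04 (SE 0.45) that turned to -0.38 without parental replicate 2. ND6, a subunit of the membrane arm, was at 399, 258 and 414 FPKM in parental and 241, 342, 411 and 270 FPKM in drug-resistant libraries (log2 fold change -0.33, SE 0.24, edgeR adjusted p = 0.296). None of these 5 members separated the groups in FPKM.

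For complex III, CYTB was at 1723, 1562 and 3637 FPKM in parental and at 2029, 2173, 2720 and 1866 FPKM in CR, PR and DR libraries. The log2 fold change was -0.23 (SE 0.31), and 0.30 without parental replicate 3. Parental replicate 3 had the highest CYTB of the 7 libraries, and the drug-resistant libraries lay between it and the other parental libraries.

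Among the complex IV subunits, COX1, which holds the oxygen-reducing centre, was at 8258, 7857 and 12670 FPKM in parental libraries. It was at 11595 in CR, 12213 and 15571 in PR, and 14078 FPKM in DR libraries (log2 fold change 0.33, SE 0.24, edgeR adjusted p = 0.312). Parental replicates 1 and 2 lay below all 4 drug-resistant libraries, and parental replicate 3 lay among them. COX2, which takes up electrons from cytochrome c, and COX3 were close to parental levels, with log2 fold changes of -0.02 (SE 0.25) and 0.06 (SE 0.21). The sign of COX2 turned with library size scaling (0.07), with upper-quartile scaling (0.15) and without parental replicate 3 (0.26). COX2 was at 6895, 8143 and 11821 FPKM in parental and 8655, 8365, 11386 and 10565 FPKM in drug-resistant libraries. COX3 was at 9610, 8988, 12327 and 9613 FPKM in the latter.

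ATP6 of ATP synthase was at 5662, 4525 and 9695 FPKM in parental and at 5682, 6831, 8266 and 6258 FPKM in CR, PR and DR libraries. Its log2 fold change was -0.13 (SE 0.28), which turned to 0.05 with upper-quartile scaling and to 0.28 without parental replicate 3. In FPKM, 0 of 10 members had drug-resistant libraries that all lay above or all below the parental libraries, whereas 25.9% of the genes tested lay above.

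**Figure D3:**
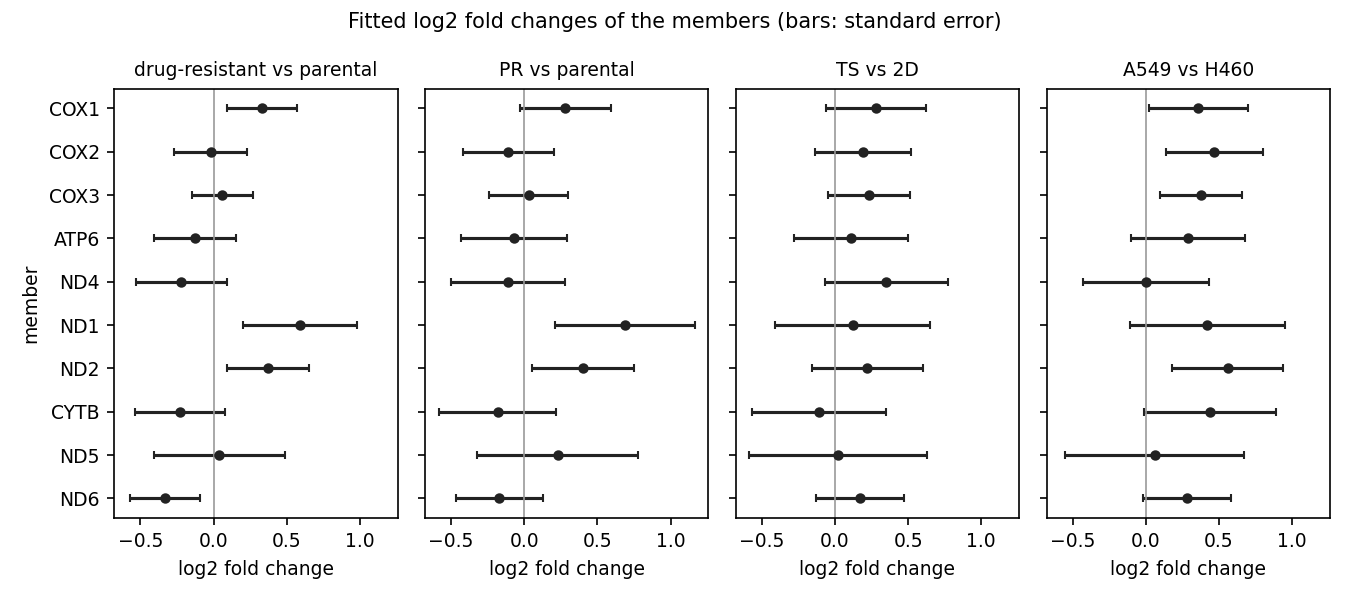
Fitted log2 fold changes of the 10 members (x axis) in the 4 comparisons, 1 panel each, with bars of 1 standard error. No member passed an adjusted p of 0.05 in any panel, and the widest bars belong to ND5 and ND1.

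Without parental replicate 3, 3 members were called higher in drug-resistant cells, beside 17.1% of all genes tested. ND1 rose by a log2 fold change of 1.18 (SE 0.34, edgeR with Benjamini-Hochberg adjustment, adjusted p = 0.0295), ND2 by 0.75 (SE 0.22, adjusted p = 0.0338) and COX1 by 0.61 (SE 0.20, adjusted p = 0.0483). With each of the other libraries left out in turn, 0 members were called. Without parental replicate 2 the log2 fold changes were 0.21 for ND1, 0.12 for ND2 and 0.17 for COX1, and with the name form of the library as a covariate ND1 had 1.12 (adjusted p = 0.0914).

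The members' counts were next expressed as a share of their own sum, which removes the level that all members have in common in a library. COX1 made up 30.2%, 31.9% and 28.7% of member counts in parental libraries and 34.3%, 32.9%, 33.8% and 37.9% in CR, PR and DR libraries. ND1 made up 4.98%, 2.50% and 5.34% against 6.24%, 7.02%, 6.53% and 5.65%. For ND2 the shares were 4.95%, 3.99% and 4.76% against 5.94%, 5.78%, 5.48% and 4.98%. For these 3 members all drug-resistant libraries lay above all parental libraries, parental replicate 3 included, although for ND2 the closest libraries were at 4.95% and 4.98%.

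CYTB and ND6 lay the other way. CYTB made up 4.66%, 4.69% and 6.09% of member counts in parental libraries and 4.44%, 4.33%, 4.37% and 3.72% in CR, PR and DR libraries. ND6 made up 0.496%, 0.356% and 0.319% against 0.242%, 0.314%, 0.304% and 0.248%. In this measure 3 of 10 members did not overlap upward and 2 of 10 downward. Among all genes tested, taken relative to the same sum, 16.7% did not overlap upward and 10.9% downward. With the members' summed count as the library size in edgeR, a fit added after the values were seen, 0 members were called. The shares of the other 5 members overlapped between the groups.

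**Figure D4:**
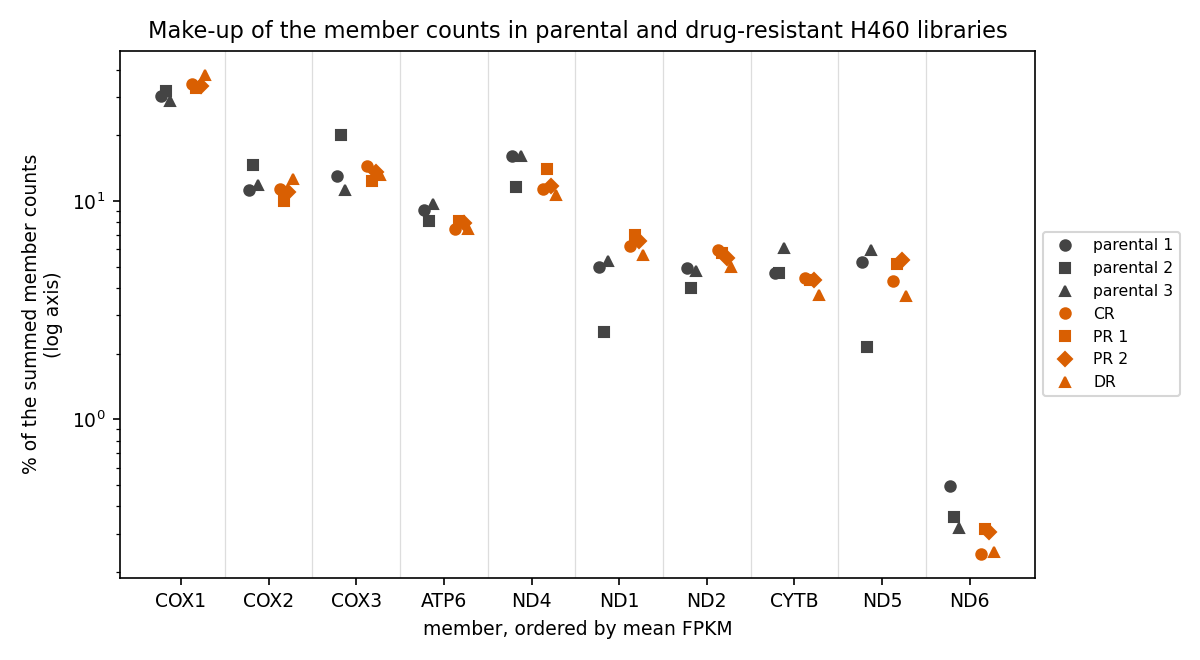
Each member's share of the summed member counts (percent, log axis) in the 3 parental (grey) and 4 drug-resistant (orange) H460 libraries. The orange points lie above all grey points for COX1, ND1 and ND2 and below them for CYTB and ND6.

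PR cells, the only drug-resistant cells with 2 libraries, were compared alone with the 3 parental libraries. Here too 0 of 10 members were called, beside 28.1% of 19430 genes tested (3387 higher and 2079 lower, and 4274 higher and 1355 lower with upper-quartile scaling). ND1 had a log2 fold change of 0.69 (SE 0.48, edgeR with Benjamini-Hochberg adjustment, adjusted p = 0.304), ND2 of 0.40 (SE 0.35) and COX1 of 0.28 (SE 0.31). ND6 had -0.17 (SE 0.30), a sign that turned with library size and upper-quartile scaling (0.04 and 0.08). Of the members 5 were positive and 5 negative, with a median of -0.02 (0.05 for all genes), which was 0.38 without parental replicate 3. The members' median was 0.18 with library size only (0.26 for all genes) and 0.22 with upper-quartile factors (0.30). With limma on log2(FPKM + 1) it was 0.26 (0.04). Under the alternatives ATP6 (-0.32 to 0.38), COX2 (-0.27 to 0.20) and COX3 (-0.19 to 0.28) also spanned 0. So did CYTB (-0.43 to 0.38), ND4 (-0.40 to 0.39) and ND5 (-0.19 to 1.13). In FPKM both PR libraries exceeded all 3 parental libraries for ND1 and ND2, that is for 2 of 10 members, beside 42.0% of the genes tested. Without parental replicate 3, 1 member, ND1, was called higher (1.30, SE 0.39, adjusted p = 0.0393), beside 20.7% of all genes tested. Without parental replicate 2 its log2 fold change was 0.30.

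CR and DR cells had 1 library each and were compared with the parental mean without a test. A fold of 2 on the log2(FPKM + 1) scale was the limit, and 0 of 10 members passed it in CR, beside 13.3% of genes that reached an FPKM of 1. In CR cells 4 members were above and 6 below the parental mean, from -0.57 for ND6 to 0.55 for ND1 (median -0.07, which was also the median of all genes). In DR cells 5 were above and 5 below, from -0.40 for ND6 to 0.55 for COX1 (median 0.02, against -0.05 for all genes), and 0 of 10 passed a fold of 2, beside 11.9% of all genes. For the mean of the PR libraries 10 of 10 members were above the parental mean, from 0.08 for ND6 to 0.96 for ND1 (median 0.23, against 0.04), and 0 passed, beside 13.9%. ND6 was thus the lowest member in each of these 3 comparisons, which share their control libraries. The edgeR fit of the same PR and parental libraries, which scales them otherwise, gave 5 members positive and 5 negative.

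The counts of members above the parental mean or past a fold of 2 moved with the control library. Against parental replicate 2 alone, 3 of 10 members were more than 2-fold apart in CR cells, beside 16.3% of genes. In PR cells it was 3 members beside 18.0% of genes, with the largest log2 difference at 2.19, and in DR cells 2 members beside 15.0% of genes. Against parental replicate 1 it was 1 member, in PR cells, beside 18.7% of genes. Of the 10 members 0 (CR), 4 (PR) and 1 (DR) lay above parental replicate 3.

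The drugs had different mechanisms, as cisplatin crosslinks DNA, doxorubicin poisons topoisomerase II and paclitaxel stabilises microtubules, but with 1 CR and 1 DR library the difference between drugs was not tested. Between the PR replicates, PR 2 exceeded PR 1 for 10 of 10 members, from 1.03-fold for ND4 to 1.37-fold for COX3.

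TS cells were compared with 2D cells of both lines, with the line as a covariate. No member was called (0 of 10, and 0 at an unadjusted p of 0.05), in a fit that called only 35 genes, or 0.189% of 18488 tested, while 1372 had an unadjusted p under 0.05 and DESeq2 called 537 genes and again 0 members. Of the members, 9 had a positive fold change, with a median of 0.18 against -0.01 for all genes. The range was -0.11 for CYTB (SE 0.46) to 0.35 for ND4 (SE 0.42), with adjusted p = 1.00 in edgeR for each. The sign of CYTB turned without parental replicate 3 (0.23) and without the H460 TS library (0.18). Under at least 1 alternative ND5 (-0.23), ND1 (-0.12) and ATP6 (-0.09) were negative. The same held for ND6 (-0.08), COX2 (-0.05) and COX3 (-0.04).

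In H460 the TS library was within the range of the parental libraries for 10 of 10 members. ND4 was at 6929 FPKM in it, COX1 at 10604 and CYTB at 1885 FPKM. Compared with the parental mean the log2 differences ran from -0.29 for CYTB to 0.38 for ND2, and 0 members passed a fold of 2, beside 4.15% of genes. Against parental replicate 2 alone 3 members were more than 2-fold apart, beside 5.76% of genes.

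In A549, TS cells against 2D cells gave log2 differences from -0.13 for ND1 (3247 against 3553 FPKM) to 0.43 for COX1 (15544 against 11503 FPKM). COX3 was at 13802 against 10751, and COX2 at 14220 against 12283 FPKM. Of the members 7 were above and 3 below, with a median of 0.17 against -0.07 for all genes, and 0 passed a fold of 2, beside 9.73% of genes. With 1 library on either side there is no replicate check.

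Between the lines, with culture as a covariate, A549 cells had 0 of 10 members called, beside 23.8% of genes. All 10 fitted fold changes were at or above 0, from 0.00 for ND4 (SE 0.43) to 0.56 for ND2 (SE 0.38, edgeR with Benjamini-Hochberg adjustment, adjusted p = 0.322). COX2 had 0.47 (SE 0.33, edgeR adjusted p = 0.343). The median of the members was 0.37, against 0.00 for all genes. Under at least 1 alternative ND4 (-0.30), ND5 (-0.19), ND6 (-0.07) and ATP6 (-0.02) were below 0. In FPKM both A549 libraries lay above the 3 parental and the TS library of H460 for 4 of 10 members, ND2, ND6, COX2 and COX3, beside 27.0% of the genes tested.

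Across the 10 libraries the levels of the members were positively correlated. Over their 45 pairs Pearson's r of log2(FPKM + 1) had a median of 0.71, from 0.20 for ND5 and COX3 to 0.93 for ND1 and ND2, and 0 pairs were negative. The libraries share their depth and selection between members, so these are descriptions. Among 9743 genes outside the mitochondrial genome, the 5 most like the members' mean in this sense were TYK2 (r = 0.93, 9.12 to 11.3 FPKM), SP2 (r = 0.93, 1.98 to 5.97 FPKM), MNT, CTC1 and TMEM94 (r = 0.90 each).

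Of the other mRNA and rRNA genes of the mitochondrial genome, ND3, ND4L, ATP8, RNR1 and RNR2, 0 of 5 were called between drug-resistant and parental cells. ND3, a small subunit of complex I, was at 1225, 1460 and 1419 FPKM in parental and 2091, 1711, 2483 and 1805 FPKM in drug-resistant libraries (0.43, SE 0.20, edgeR adjusted p = 0.115, and 0.0428 with upper-quartile scaling). ND3 was the single protein-coding mitochondrial gene with no overlap in FPKM between these groups, beside 25.9% of all genes tested that lay above. Relative to the members' summed count ND3 overlapped. ND4L, another small subunit, ranged from 2206 to 11643 FPKM among parental libraries (-0.72, SE 0.46, adjusted p = 0.252), and it was called lower without parental replicate 2 (-1.14, adjusted p = 0.0491) and had 0.17 without parental replicate 3.

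Genes that share an mRNA kept no constant ratio between libraries. ATP8 was at 0.667 to 0.750 of the FPKM of ATP6 in parental replicates 1 and 2, in the 4 drug-resistant libraries and in H460 TS. The ratio was 0.418 in parental replicate 3 and 0.476 and 0.463 in the A549 libraries. For ND4L and ND4 the ratio was 1.46 in parental replicate 3 and 0.690 to 1.06 elsewhere. TRNS1, whose complement follows the COX1 reading frame within the 3′ part of its mRNA, was at 0.0209 of COX1 in parental replicate 3 and at 0.0798 to 0.165 elsewhere. In all 3 ratios parental replicate 3 was at the extreme of the 10 libraries.

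**Figure D5:**
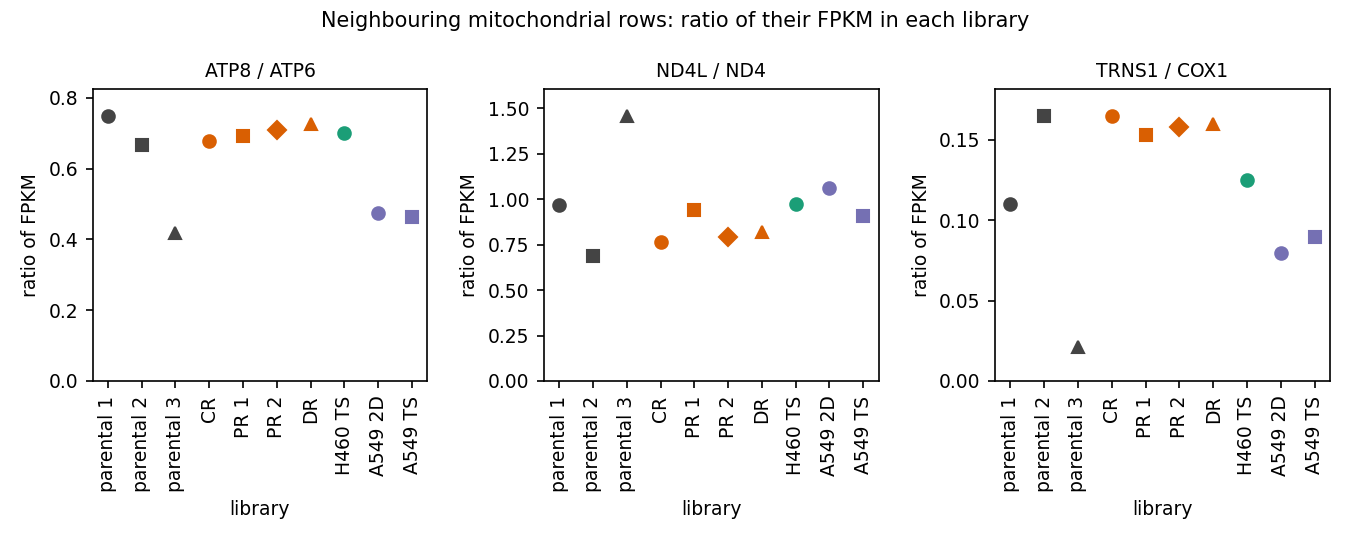
Ratio of the FPKM of ATP8 to ATP6, of ND4L to ND4 and of the TRNS1 row to COX1 in each library, 1 point per library (grey, parental; orange, drug-resistant; green, H460 TS; purple, A549). Parental replicate 3 is lowest for ATP8 to ATP6 (0.418) and TRNS1 to COX1 (0.0209) and highest for ND4L to ND4 (1.46).

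Some of the tRNA genes of the mitochondrial genome, which flank the members, were called higher in drug-resistant cells. Of 22 rows tested, 13 were called higher, 0 lower and 9 did not pass (18.2% of all genes were called higher), with a median log2 fold change of 1.21, and for 15 the drug-resistant libraries lay above all parental libraries in FPKM (25.9% of all genes). TRNI, the tRNA for isoleucine next to ND1, was at 28.9, 21.5 and 28.4 FPKM in parental libraries and at 77.1, 79.1, 132 and 138 FPKM in CR, PR and DR libraries. It rose by 1.88 (log2, SE 0.30, edgeR with Benjamini-Hochberg adjustment, adjusted p = 0.00165). TRNK, the tRNA for lysine between COX2 and ATP8, was at 9.42, 3.28 and 7.11 FPKM in parental and at 24.3, 46.0, 53.1 and 44.1 FPKM in drug-resistant libraries. It rose by 2.48 (SE 0.43, adjusted p = 0.00237). For both rows parental replicate 1 was the highest parental library, but parental replicate 3 was the highest for 16 of the 22 rows. The counts behind these rows were 110 to 175 for TRNI and 17 to 56 for TRNK in the parental libraries, and how reads that reach from a tRNA row into a neighbouring mRNA were counted is not given.

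Among RNAs without a poly(A) tail encoded in the nucleus, 1 of 6 tested was called, and it was higher, beside 18.2% of all genes called higher. The median log2 fold change of these 6 was -0.68. RPPH1, the RNA of the nuclear RNase P, was at 0.0584, 0.10 and 0.0888 FPKM in parental and at 0.649, 0.313, 3.89 and 0.435 FPKM in CR, PR and DR libraries. It rose by 3.55 (log2, SE 1.00, edgeR adjusted p = 0.0231), but lost the call under 5 of 14 alternatives, among them leaving out any 1 parental library or PR 2. The part of poly(A) selection in the tRNA values was not tested either.

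The number of tRNA rows called depended on the libraries. It was 6 without parental replicate 1, 8 without parental replicate 2, PR 2 or DR, and 20 without parental replicate 3. The share of all genes called, in either direction, moved as well. It was 32.5% with all libraries, 24.3% without parental replicate 1 and 21.6% without parental replicate 2. Without PR 2, DR or parental replicate 3 it was 23.2%, 26.6% and 33.4%. TRNA, TRNI, TRNK, TRNQ and TRNW were called in each of these fits. In PR cells alone 8 of 22 rows were called higher, beside 17.4% of genes, but 5 without parental replicate 2 and 18 without parental replicate 3. All genes called in either direction went from 28.1% to 18.5% and 34.9% in these fits. In TS cells 0 of 22 were called in edgeR and DESeq2. In A549 against H460, 7 of 22 were called higher, beside 14.4% of genes, but 4 without parental replicate 1 and 1 without parental replicate 2. Here all genes called in either direction went from 23.8% to 18.4% and 14.5%.

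Nuclear genes that serve the expression of mtDNA were compared between drug-resistant and parental cells by lists, whose counts stand beside 14.3% of all genes called lower and a median of 0.11. Of 9 genes of mitochondrial transcription, 2 were called lower and 0 higher, with a median log2 fold change of -0.32. TFAM, which packages mtDNA and starts its transcription, was at 20.7, 17.8 and 9.20 FPKM in parental and 5.97, 9.71, 6.39 and 6.26 FPKM in drug-resistant libraries. It fell by 1.30 (SE 0.27, edgeR adjusted p = 0.00564). Parental replicate 3, the parental library with the highest member levels, had the lowest TFAM of the 3, and it overlapped with 1 drug-resistant library. POLRMT, the mitochondrial RNA polymerase, was at 9.88 to 11.9 FPKM in parental and 13.2 to 14.2 FPKM in drug-resistant libraries.

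Of 18 genes of mitochondrial RNA processing and stability, 10 were called lower and 1 higher (median -0.66). SLIRP, which with LRPPRC protects mitochondrial mRNAs, was at 188, 235 and 107 FPKM in parental and 75.7 to 93.8 FPKM in drug-resistant libraries and fell by 1.18 (SE 0.23, edgeR adjusted p = 0.00454). HSD17B10, a subunit of the RNase P that cuts the 5′ ends of the tRNAs, fell by 0.84 (SE 0.19, adjusted p = 0.00785). Of 14 genes of mtDNA replication and maintenance, 2 were called lower and 3 higher (median -0.39). TOP1MT, the mitochondrial topoisomerase, fell by 1.10 (SE 0.19, adjusted p = 0.00237), whereas RRM2B, a ribonucleotide reductase subunit that p53 induces, rose by 1.03 (SE 0.19, adjusted p = 0.00360), but did not pass with the members' summed count as the library size (0.78, adjusted p = 0.133). Among 10 regulators of mitochondrial biogenesis, 5 were called lower and 1 higher (median -0.63), with CREB1 falling by 1.33 (SE 0.21, adjusted p = 0.00148) and GABPB1, a subunit of nuclear respiratory factor 2, by 0.81 (SE 0.16, adjusted p = 0.00538).

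The nuclear partners of the members in the same complexes were lower or not called, and 0 were higher. Called lower were 8 of 37 nuclear subunits of complex I (median -0.46), 1 of 4 subunits of complex II, which has no mitochondrially encoded subunit (median -0.62), 2 of 9 of complex III (median -0.58), 3 of 11 of complex IV (median -0.19) and 7 of 15 of ATP synthase (median -0.67). NDUFC1 of complex I was at 45.5, 58.9 and 33.9 FPKM in parental and 17.1 to 20.6 FPKM in drug-resistant libraries and fell by 1.24 (SE 0.19, edgeR adjusted p = 0.00142). NDUFA9, another subunit of complex I, fell by 0.96 (SE 0.17, adjusted p = 0.00246). Of complex II, SDHB, which holds its iron-sulfur clusters, fell by 1.03 (SE 0.20, edgeR adjusted p = 0.00423), whereas the membrane anchor SDHD had -0.71 (SE 0.25, adjusted p = 0.0525), which did not pass, but passed without parental replicate 3 (-0.99, adjusted p = 0.00561), with DESeq2 and with the name form as a covariate. CYC1, which carries cytochrome c1 in the same complex as CYTB, fell by 0.96 (SE 0.21, adjusted p = 0.00808), and ATP5ME and ATP5F1C of ATP synthase fell by 0.91 (SE 0.19, adjusted p = 0.00617) and 0.88 (SE 0.21, adjusted p = 0.0122). Assembly factors of the complexes were called lower in 10 of 34 cases (median -0.38), among them ECSIT and NDUFAF3 of complex I (-0.97 and -1.04). Mitochondrial translation and membrane insertion had 4 of 13 called lower (median -0.49), among them C12orf65, a factor of mitochondrial translation release (-0.78, SE 0.26, adjusted p = 0.0397), which lost the call under 11 of 17 alternatives.

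Without parental replicate 2, C12orf65 (-0.67, adjusted p = 0.130), TFB1M (-0.44, adjusted p = 0.202), TUFM (-0.66, adjusted p = 0.0776), UQCRFS1 (-0.64, adjusted p = 0.0624), COX8A (-0.67, adjusted p = 0.0626) and COX7B (-0.62, adjusted p = 0.0749) did not pass in edgeR with Benjamini-Hochberg adjustment. TFB1M lost the call under 13 of 17 alternatives, among them leaving out parental replicate 3 (-0.75, adjusted p = 0.0510). TUFM and COX7B lost it under 5 of 17 each, among them upper-quartile scaling (adjusted p = 0.0618 and 0.0548) and leaving out PR 1 or PR 2. Whether nuclear and mitochondrial subunits differed from each other in their response was not tested. In TS against 2D cells 0 genes of any of these lists were called.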

How the data were processed

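Poly(A) RNA of 10 cultures was sequenced by the authors with TruSeq mRNA libraries, and the submitters' processing notes name bcl2fastq 1.8.4, Trimmomatic, HISAT2 2.1.0, StringTie 2.1.3b and GRCh38. The authors deposited whole-number read counts per gene without normalization. The deposited FPKM values are scaled for length and library size, and the deposited TPM values are a constant multiple of them in each library. Groups were taken from the sample labels, and doses from the methods of the study.

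Counts of all genes were tested with edgeR 4.0.16 (quasi-likelihood, TMM) in R 4.3.3, for genes with a count of at least 10 in at least 2 libraries. The p-values were adjusted after Benjamini-Hochberg, and 0.05 was the threshold. Standard errors are the log2 fold change over the square root of F. Comparisons of 1 library used log2(FPKM + 1), on which differences of low genes are understated, and a fold of 2. DESeq2 1.42.0, limma 3.58.1 and other scalings, filters and left-out libraries were alternatives. The edgeR fits were tested on simulated counts with the same dispersion for all genes and no outlying library. That test cannot speak for a spread like that of the parental libraries. The name forms used as a covariate are those in the description labels. Among the libraries of that fit, parental replicate 2, CR, PR 2 and DR have a hyphen before the year, and the others have none. Name form and treatment are thus partly confounded. Sequences and positions came from GENCODE 29.

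The members, lists and tests were chosen with earlier results of these data known. Named were the members, the other mitochondrial genes, the 2 genes of each list with the smallest adjusted p, and the 5 genes most correlated with the members. POLRMT, RN7SL2 and the markers KRT8, CDH1, PTPRC and LUM were named after their values were seen.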

Additional observations from a re-analysis of the deposited data

How the results depend on the processing

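No member was called in any of the 4 comparisons under another count test, scaling, filter or pseudocount, nor in drug-resistant cells with the name form as a covariate. Calls among the members came only in fits without parental replicate 3, to which the fits of PR and parental replicates 1 and 2 belong. Leaving out 1 library gave 0 to 3 members for all drug-resistant cells and 0 to 1 for PR cells. The labels share replicate numbers 1 and 2 between parental and PR libraries. Over 12496 genes the deviations of these 2 pairs correlated at 0.156, and nothing says what a number shares, so pairing was not shown. With a replicate block ND1 (1.42), ND2 (0.82) and COX1 (0.59) were called, 3 members beside 19.7% of all genes called higher. The same 4 libraries without the block, which is the PR fit without parental replicate 3, gave 1. The tRNA rows called in PR cells numbered 16 with the block and 18 without it.

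In the drug-resistant fit several small fold changes changed sign, and the cause was not tested. With limma on log2(FPKM + 1) or log2(FPKM + 0.1), ND4 had 0.03, CYTB 0.02, COX2 0.15 and ATP6 0.09. With library size only, upper-quartile factors and the FPKM filter COX2 had 0.07, 0.15 and 0.09, and with upper-quartile factors ATP6 had 0.05. The name form as a covariate gave ND4 0.13, ATP6 0.09, COX3 -0.02 and ND4L 0.01, and the members' sum as library size gave COX3 -0.14. Leaving out 1 library, ranges that spanned 0 were -0.51 to 0.21 for ND4, -0.38 to 0.73 for ND5, -0.48 to 0.30 for CYTB, -0.20 to 0.26 for COX2, -0.09 to 0.17 for COX3, -0.38 to 0.28 for ATP6, -1.14 to 0.17 for ND4L and -1.52 to 0.76 for RN7SL1. For CYTB in TS cells the range was -0.33 to 0.23. ND6 in PR cells had 0.04 (library size only, and replicate block), 0.08 (upper-quartile factors) and 0.10 (limma).

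Calls over all genes numbered 4216 and 4237 with limma for drug-resistant cells and 4279 to 6601 with 1 library left out. For PR cells they were 2742 (FPKM filter), 3026 and 2773 (limma with pseudocounts 1 and 0.1) and 695 to 6701. For TS cells they were 537 (DESeq2), 19 (FPKM filter, and limma with 0.1), 424 (members' sum) and 6 to 340, and for A549 against H460 2843 (FPKM filter) and 1847 to 3892. The tRNA rows called were 6 to 20 for drug-resistant cells, 17 and 15 (limma) and 0 to 18 for PR cells, and 11 (limma) and 0 to 9 for A549. Against parental replicate 2 alone, 3 (CR), 3 (PR), 2 (DR) and 3 (H460 TS) members were over 2-fold apart, and against parental replicate 1 alone 1 (PR).

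A fit that leaves 1 library in an arm takes its spread from the other groups.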
